A study of Mus musculus with 19 samples.

Results

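Antibody-secreting cells and naive B cells sorted from the same organ were compared across the transcriptome. The comparison used 6 of the 19 libraries of the series, 3 of CD138+ splenic antibody-secreting cells and 3 of splenic naive B cells gated as CD3-, B220+ and IgD+. They were chosen by sample title alone, so no measured value decided which libraries entered. All 6 came from mice given washed sheep red blood cells intraperitoneally and taken at day 28, and all carry the genotype label wild type. The header line of the tables calls the same columns HET, and the sources used here do not settle which is right. Pik3cg is the gene deleted in the other arm of the series. The series design counts 3 wild-type mice. Whether a secreting-cell library and a naive library came from the same mouse is not stated, nor is strain, age or the number of cells pooled, and p-values measure only the spread between these libraries. Naive here means a sort on surface IgD in an immunized mouse, and the other B cells of those spleens are not in this comparison.

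A B cell that becomes a plasma cell exchanges one transcription factor network for another. Pax5, Bach2 and Ciita maintain the B cell state, with its antigen receptor, antigen presentation and follicle homing, while Blimp-1 (Prdm1), Irf4 and Xbp1 establish the secretory state. Xbp1 enlarges the endoplasmic reticulum (ER), where antibody chains are translocated, folded, glycosylated and passed to the Golgi. The cells then depend on survival signals from their niche rather than on the antigen receptor.

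The sorts carried the RNA their labels name. In deposited CPM (read counts scaled to a common total of 1000000 per library), immunoglobulin gene rows took 62.2%, 66.1% and 61.5% of the 3 secreting-cell libraries, and Jchain, which joins IgA and IgM into polymers, took another 10.8%, 10.5% and 10.8%. In the naive libraries the immunoglobulin rows and Jchain together took 4.16%, 3.90% and 3.98%. Igkc, the kappa constant gene, held 29.6% ± 2.19 of secreting-cell CPM (SD, n = 3) against 1.72% ± 0.0678 in naive cells. Igha was the heavy-chain constant gene with the most CPM in secreting cells, 14.0% ± 5.37, and ran from 7.93% to 18.2% between libraries. Ighd, the isotype used to sort the naive cells, held 0.352% ± 0.0120 of their CPM and 0.000669% ± 0.000200 of the secreting cells'.

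**Figure D1:**
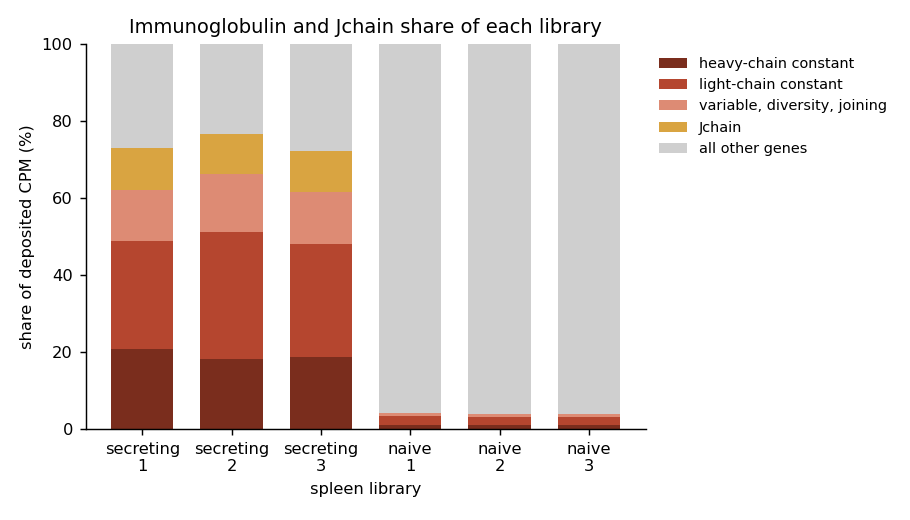
Share of each library's deposited CPM (vertical axis, percent) held by heavy-chain constant, light-chain constant and variable-region immunoglobulin genes, by Jchain and by all other genes, for 3 secreting-cell and 3 naive B cell libraries from spleen. The coloured parts fill 72.3% to 76.7% of the secreting-cell bars and 3.90% to 4.16% of the naive bars.

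Because the immunoglobulin rows fill most of one cell type and little of the other, they and Jchain were removed and the remaining 19125 genes rescaled to that total. Every level below is in this rescaled CPM unless said otherwise, so a difference is relative to the rest of the non-immunoglobulin RNA. In bulk libraries, fewer cells expressing a gene and less RNA per cell cannot be told apart. Estimated depths were 13.1 to 16.4 M (M, 1000000 reads) in the secreting cells and 11.4 to 13.1 M in naive cells, of which 3.05 to 4.53 M and 10.9 to 12.5 M remained after the removal. The floor used here for a gene at 0, 3 reads in a library, therefore corresponds to 0.662 to 0.984 CPM in secreting cells and 0.240 to 0.275 CPM in naive cells. Replicates correlated across the tested genes with Pearson r of 0.860 to 0.861 in secreting cells and 0.904 to 0.922 in naive cells, and genes are not independent replicates. The cell types sit in 2 tables scaled in the same way, so cell type and table cannot be told apart.

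Of 9068 genes whose mean over the 6 libraries reached 10 CPM, 3260 (36.0%) passed an adjusted p of 0.05 in limma. In secreting cells 1526 were higher (16.8%) and 1734 lower (19.1%), and the median log2 fold change of all tested genes was −0.12. At least 4-fold changes on the log2(CPM + 1) scale were called for 656 genes higher and 497 lower. The values of the groups did not overlap for 4543 genes (50.1%). With CPM as deposited, the removed rows still in the total, the median of all genes moved by −1.84 and the split became 429 higher and 6424 lower. Secreting-cell genes that rose by less than about that much on the rescaled scale therefore rose relative to other non-immunoglobulin RNA and not as a share of all RNA.

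**Figure D2:**
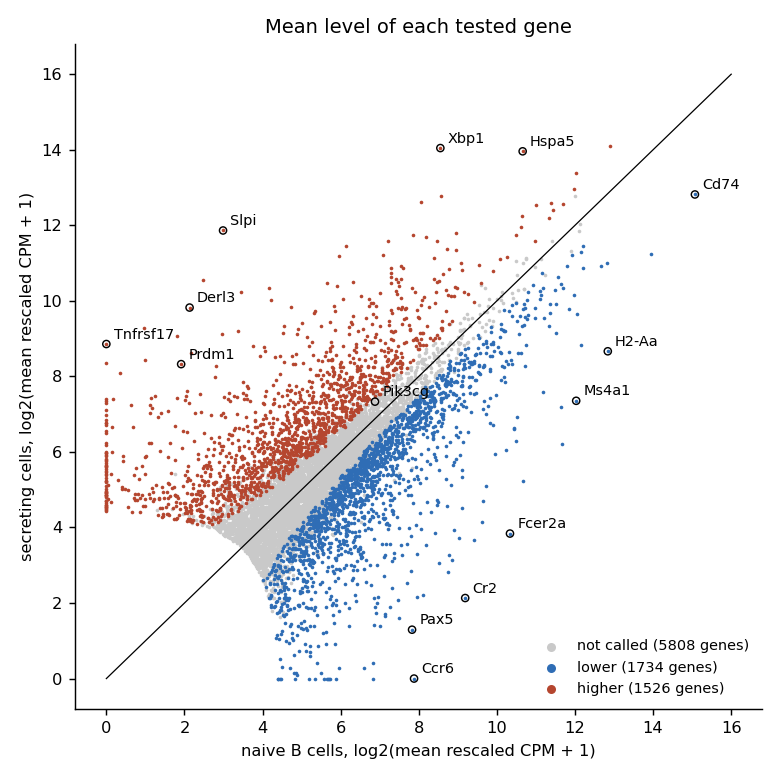
Mean level of each of the 9068 tested genes in naive B cells (horizontal axis) and secreting cells (vertical axis), both as log2(mean rescaled CPM + 1), n = 3 libraries each. Red points are the 1526 genes called higher in secreting cells, blue points the 1734 called lower, grey points the rest, and the line marks equal levels; Xbp1 and Hspa5 lie high on both axes, while Tnfrsf17 and Ccr6 lie on an axis because one group was at 0.

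Genes of the plasma cell state rose as a block. Of 24 tested members of a list of 25 plasma cell regulators and markers, 22 were called higher and 1 lower, with a median log2 fold change of 5.42. The list was chosen with results of these libraries known, so its direction is not independent evidence. Prdm1, which encodes the repressor Blimp-1, stood at 412, 166 and 381 CPM in the secreting cells and at 0, 8.13 and 0.183 in naive cells. Its log2 fold change was 7.07 ± 0.82 (SE, limma adjusted p = 0.000376), and 8.09 without naive replicate 2, the one naive library with a clear level. Xbp1 stood at 17892, 16518 and 16277 CPM against 402, 341.5 and 379, a log2 fold change of 5.49 ± 0.12 (limma adjusted p = 4.51e-07). The 3 secreting-cell values of Xbp1 lie close together, and each is far above every naive value. Irf4, which acts at both the activated B cell and the plasma cell stage, was already present in naive cells at 43.7, 58.8 and 66.8 CPM and reached 775, 364 and 647 in secreting cells (3.33 ± 0.30, limma adjusted p = 9.89e-05). These genes lie on chromosome 10 (Prdm1, 44437177 to 44528501, minus strand), chromosome 11 (Xbp1, 5520659 to 5525893, plus strand) and chromosome 13 (Irf4, 30749226 to 30766976, plus strand) of mm10.

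Several receptors of the list were at or near 0 in naive cells. Tnfrsf17 (BCMA), the receptor for APRIL and BAFF that long-lived plasma cells need, had 552, 344 and 491 CPM in secreting cells and was at 0 in all 3 naive libraries, which makes it at least 1681-fold higher when all naive libraries are set to the largest of their limits for 3 reads, 0.275 CPM. Cd28, better known as a T cell costimulatory receptor, stood at 792, 491 and 585 CPM against 0, 0 and 2.84 (log2 fold change 8.61 ± 0.53, limma adjusted p = 1.72e-05, and 9.26 without naive replicate 3). Ctla4, the other receptor for the same ligands, stood at 202, 109 and 197 CPM against 0.4, 0 and 0. Among T cell genes, Cd3e was at 0 in every secreting-cell library and Cd3d and Trac were at most 3.28 CPM there, while Cd4 was called higher, at 84.1, 22 and 65.1 CPM against 6, 0 and 0. The part of T cell RNA in the Cd28 and Ctla4 values was not tested. Sdc1, which encodes CD138, was part of the sort and is given only as a check: 1373, 1029 and 1461 CPM against 36.6, 7.42 and 7.06, a log2 fold change of 6.54, or 7.27 without naive replicate 1. Mzb1, an ER co-chaperone of antibody assembly, stood at 6097, 7691 and 7240 CPM against 470, 330.7 and 326 (4.23 ± 0.18, limma adjusted p = 4.14e-06). The exception in the list was Cxcr4, the receptor for the bone marrow chemokine Cxcl12, at 4.60, 19.02 and 9.48 CPM against 41.9, 23.9 and 43.9. Its fall of 1.78 on the log2 scale (SE 0.51, limma adjusted p = 0.0275) was lost without secreting-cell replicate 1 (adjusted p = 0.0583), secreting-cell replicate 3 (0.0647), naive replicate 1 (0.0869) or naive replicate 3 (0.0946), and with voom (0.14).

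Other large rises were in genes outside the transcription factor network. Eaf2, an elongation factor partner, stood at 281.9, 393 and 367 CPM against 0.560, 1.34 and 1.01 (log2 fold change 7.47 ± 0.30, limma adjusted p = 3.75e-06). Prg2, best known as a granule protein of eosinophils, was 358, 439 and 176 CPM against 0 in all 3 naive libraries, at least 1178-fold higher. Gpr160, an orphan receptor, and Gpx3, a secreted glutathione peroxidase, were also at 0 in every naive library and at 120 to 231 CPM in the secreting cells. H1f0, a linker histone of non-dividing cells, stood at 1004, 2351 and 1160 CPM against 3.20, 0 and 10.6, a log2 fold change of 8.58, or 7.65 without naive replicate 2 and 9.42 without naive replicate 3. Slpi, a secreted protease inhibitor, varied widely between libraries: 677, 7962 and 2530 CPM in the 3 secreting-cell libraries against 1.68, 12.3 and 6.79. Its log2 fold change was 8.52 ± 0.88 (limma adjusted p = 0.000205), 9.43 without secreting-cell replicate 1, 7.65 without secreting-cell replicate 2 and 7.87 without naive replicate 1. On reads estimated per library, voom missed the threshold for Prdm1 (adjusted p = 0.169), Cd28 (0.0594), Ctla4 (0.0791), Prg2 (0.145), Gpx3 and H1f0 (0.0574), whose naive values are at or near 0.

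The transcription factors of the B cell state moved the other way. Of 26 tested of 28, 19 were called lower and 3 higher, with a median log2 fold change of −1.79. Pax5, which holds cells in the B lineage, stood at 2.05, 1.64 and 0.662 CPM in secreting cells and 219, 216 and 244 in naive cells, a fall of 6.58 on the log2 scale (SE 0.33, limma adjusted p = 7.45e-06). Bach2, which represses Prdm1, stood at 19.96, 10.8 and 16.3 CPM against 152, 149 and 144 (−3.20 ± 0.26, limma adjusted p = 6.61e-05). Bcl11a was 3.07, 0 and 7.94 CPM against 308, 274 and 244 (−6.38, or −5.51 without secreting-cell replicate 2 and −7.09 without secreting-cell replicate 3), and Ets1, which restrains plasma cell formation, was 719, 420 and 551 against 2569, 3304 and 2881. Foxp1 fell by 2.73 (SE 0.14). Foxo1 had a smaller difference, at 55.5, 84.9 and 98.6 CPM against 129, 137 and 126, and its call (−0.74 ± 0.23, limma adjusted p = 0.0395) was lost when secreting-cell replicate 1 (0.0668), secreting-cell replicate 2 (0.0551) or naive replicate 1 (0.0932), 2 (0.112) or 3 (0.0906) was left out. Of the factors called higher, Pou2af1 (OCA-B, a coactivator at immunoglobulin promoters) stood at 1197, 890 and 1242 CPM against 381, 525 and 447 and Tcf4 (E2-2) at 344, 346 and 415 against 130, 128 and 157. All 26 were called lower in CPM as deposited, so the rise of those factors holds only relative to non-immunoglobulin RNA.

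**Figure D3:**
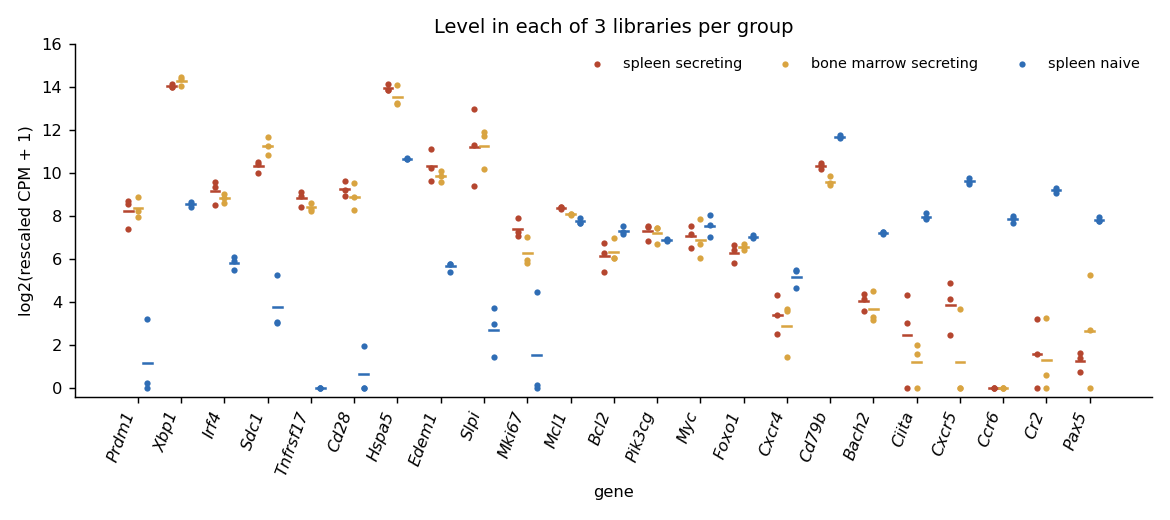
Level of 23 genes in each library, as log2(rescaled CPM + 1) on the vertical axis, for spleen secreting cells (red), bone marrow secreting cells (yellow) and spleen naive B cells (blue), with 3 points per group and a bar at their mean. Prdm1, Xbp1 and Tnfrsf17 stand higher in both secreting groups than in naive cells, and every naive value of Pax5, Cr2 and Ccr6 lies above every secreting-cell value.

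The antigen receptor and its signalling chain fell in most parts. All 30 listed genes were tested, of which 23 were called lower and 1 higher (median log2 fold change −1.85). Losses were uneven along the chain. Cd79a and Cd79b, the signalling chains that sit beside surface immunoglobulin, kept high levels: Cd79a stood at 1814, 1312 and 1599 CPM against 2906, 2839 and 3346, a fall of 0.95 (SE 0.15), and Cd79b fell by 1.35 (SE 0.13). Cd22, an inhibitory lectin, was 14.6, 13.4 and 7.28 CPM against 700, 606 and 752, and Bank1, an adaptor, was 22.5, 32.8 and 19.2 against 713, 838 and 851. Cr2, a complement receptor, stood at 8.18, 1.97 and 0 CPM against 592, 530 and 626, a log2 fold change of −7.60 (SE 0.68), or −8.401 without secreting-cell replicate 1 and −6.80 without secreting-cell replicate 3. The one gene of the list called higher was Ptpn22, at 78.3, 110 and 37.3 CPM against 15.52, 30.3 and 26.4, and its call was lost without secreting-cell replicate 1 (adjusted p = 0.0728) or 2 (0.085) or naive replicate 1 (0.0794) or 3 (0.0529).

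Surface receptors of resting B cells followed. Of 26 tested, 20 were called lower and 2 higher (median −2.81). Ms4a1, which encodes CD20, stood at 98.7, 207 and 182 CPM against 4400, 4084 and 4064, and Ltb, the lymphotoxin chain that shapes follicles, at 246.05, 121 and 71.5 against 3485, 2983 and 3080. Fcer2a (CD23) stood at 11.0, 8.197 and 20.7 CPM against 1112, 1394 and 1367, a fall of 6.59 (SE 0.31, limma adjusted p = 5.65e-06). Il4ra, the IL-4 receptor chain, was at 0 in all 3 secreting-cell libraries and at 92.0, 123 and 125 CPM in naive cells, at least 115-fold lower. The receptors for BAFF and APRIL did not move together: Tnfrsf13c (BAFF receptor) fell from 1082, 1011 and 1224 CPM to 197, 340 and 183, Tnfrsf13b (TACI) stood at 1831, 1905 and 1616 against 941, 877 and 1053, and Tnfrsf17 was found in secreting cells alone. Tnfrsf13b was called higher by 0.90 (SE 0.13, limma adjusted p = 0.0012).

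Antigen presentation on MHC class II fell across most of the pathway. Of 15 tested genes, 14 were called lower and none higher (median −3.46), and the remaining gene, Rfxank, had a log2 fold change of 0.36. H2-Aa, the alpha chain of I-A, stood at 317, 544 and 353 CPM in secreting cells and 6946, 7588 and 7457 in naive cells (−4.21 ± 0.20, limma adjusted p = 5.86e-06). H2-Ab1 stood at 1960, 3434 and 1902 CPM against 14658, 16310 and 16604, and H2-Eb1 at 417, 581 and 367 against 4179, 4793 and 4724. Cd74, the invariant chain, retained 5689, 10316 and 5626 CPM against 32018, 33986 and 37232. H2-Oa, which restrains peptide loading, fell by 5.97 (SE 0.28). Ciita, the master activator of these genes, stood at 0, 7.21 and 19.2 CPM against 239, 231 and 277, which gave −5.50 ± 0.93 on the log2 scale (limma adjusted p = 0.00245), or −4.28 without secreting-cell replicate 1 and −6.44 without secreting-cell replicate 3. Secreting-cell replicate 2 had the most H2-Aa, H2-Ab1, H2-Eb1 and Cd74 of the 3, while its Ciita lay between the others.

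Homing receptors went both ways. Of 20 tested of 24 listed positioning genes, 10 were called lower and 5 higher (median −1.05). Ccr6, a chemokine receptor of naive B cells, was at 0 in all 3 secreting-cell libraries and at 202, 257.97 and 243 CPM in naive cells, at least 238-fold lower. Cxcr5, which draws B cells into follicles, stood at 28.9, 4.59 and 16.8 CPM against 767, 863 and 721 (−5.77 ± 0.53, and −5.09 without secreting-cell replicate 2). Ccr7, which draws them to the T cell zone, was 39.1, 18.03 and 41.7 CPM against 829, 929 and 774. S1pr1, which guides exit into blood, fell by 1.83 (SE 0.27). Cxcr3, an inflammatory chemokine receptor, stood at 94.6, 274 and 117 CPM against 9.76, 9.29 and 4.77, and the integrin chains Itga4 (586, 257 and 369 against 156, 109 and 144 CPM) and Itgb2 (246.3, 254 and 287 against 119, 99.0 and 93.9) were also called higher. The remaining 2 called higher were Ccr10, a mucosal homing receptor at 147, 67.2 and 158 CPM against 0 in every naive library (at least 450-fold higher), and Itgb7, an integrin chain of gut homing whose call was lost without any one library but secreting-cell replicate 2 (adjusted p = 0.0752 to 0.13, and a log2 fold change of 2.13 without that replicate against 1.5 with it). In CPM as deposited 2 genes of the list were called higher and 15 lower.

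Most ER genes rose, at each step that a secreted protein passes. Of 24 tested genes of signal recognition and translocation, 23 were called higher and none lower (median log2 fold change 2.67, and 0.83 in CPM as deposited). Ssr3, a translocon-associated subunit, stood at 2282, 1685 and 1850 CPM against 158, 214 and 184 (3.38 ± 0.17, limma adjusted p = 7.45e-06). Spcs2 and Spcs3, which belong to the signal peptidase that trims the leader from each chain, rose by 2.80 (SE 0.19) and 2.63 (SE 0.17). Of 29 tested chaperones and folding enzymes, 28 were called higher and none lower (median 3.03, and 1.19 in CPM as deposited). Hspa5 (BiP), the chaperone that holds free heavy chains, stood at 18008, 15053 and 14687 CPM against 1594, 1580 and 1676 (3.29 ± 0.13, limma adjusted p = 3.27e-06). Hsp90b1 (GRP94) stood at 6654, 5897 and 6327 CPM against 266, 248 and 285, a larger log2 fold change of 4.56 ± 0.12. Pdia4, a disulfide isomerase, stood at 3827, 2762 and 3331 CPM against 327, 255 and 281. Canx, the lectin chaperone calnexin, changed least of the 4 named, at 2028, 3071 and 1771 CPM against 1204, 1196 and 1282 (0.86 ± 0.20, limma adjusted p = 0.0115).

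Sugar addition and quality control rose as well. Of 28 N-glycosylation genes, 20 were called higher and none lower (median 1.82, and 0.01 in CPM as deposited, with 4 higher and 7 lower). Rpn1 and Ddost, subunits of the oligosaccharyltransferase, stood at 1944, 1393 and 1762 CPM against 172, 163 and 132 and at 869, 1045 and 1040 against 115, 118 and 104. Of 19 tested genes of ER-associated degradation, 15 were called higher and none lower (median 2.75, and 0.67 in CPM as deposited). Edem2, which marks misfolded glycoproteins, stood at 1345, 1464 and 1226 CPM against 58.1, 50.8 and 67.9 (4.50 ± 0.16), and Edem1 at 1219, 2239 and 785 against 53.4, 41.6 and 53.8. Herpud1, a scaffold of the degradation complex, stood at 3733, 4087 and 2532 CPM against 185, 247 and 256. Derl3, a channel component induced in secretory cells, stood at 1042, 567 and 1103 CPM against 5.60, 1.70 and 2.84 (7.73 ± 0.39, limma adjusted p = 7.45e-06).

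Sensors of the unfolded protein response were less uniform. Of 14 tested, 8 were called higher and none lower (median 1.21), while in CPM as deposited the median was −0.63 with 3 called higher and 6 lower. Without secreting-cell replicate 3, or with voom, 5 were called higher. Atf6, the sensor cleaved in the Golgi, stood at 280, 195 and 231 CPM against 65.0, 63.4 and 18.99, and Creb3l2, a related membrane-bound factor, at 190, 106 and 204 against 6.88, 10.3 and 5.69 (4.26 ± 0.34, limma adjusted p = 6.03e-05). Atf4, the factor of the PERK branch, stood at 302, 174 and 311 CPM against 92.0, 112 and 115 (1.26 ± 0.25). Ddit3 (CHOP), a target of that branch linked to cell death, had a log2 fold change of 0.06 and was not called. Transport out of the ER rose in 35 of 40 tested genes of the COPII and COPI coats and their cargo receptors, with none lower (median 1.88, and 0.03 in CPM as deposited, with 11 higher and 10 lower). Tmed2 and Tmed10, cargo receptors of these vesicles, stood at 2439, 2808 and 2617 CPM against 491, 499 and 498 and at 1948, 2702 and 2077 against 310, 348 and 341. Surf4, an export receptor for soluble cargo, rose by 2.33 (SE 0.13).

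**Figure D4:**
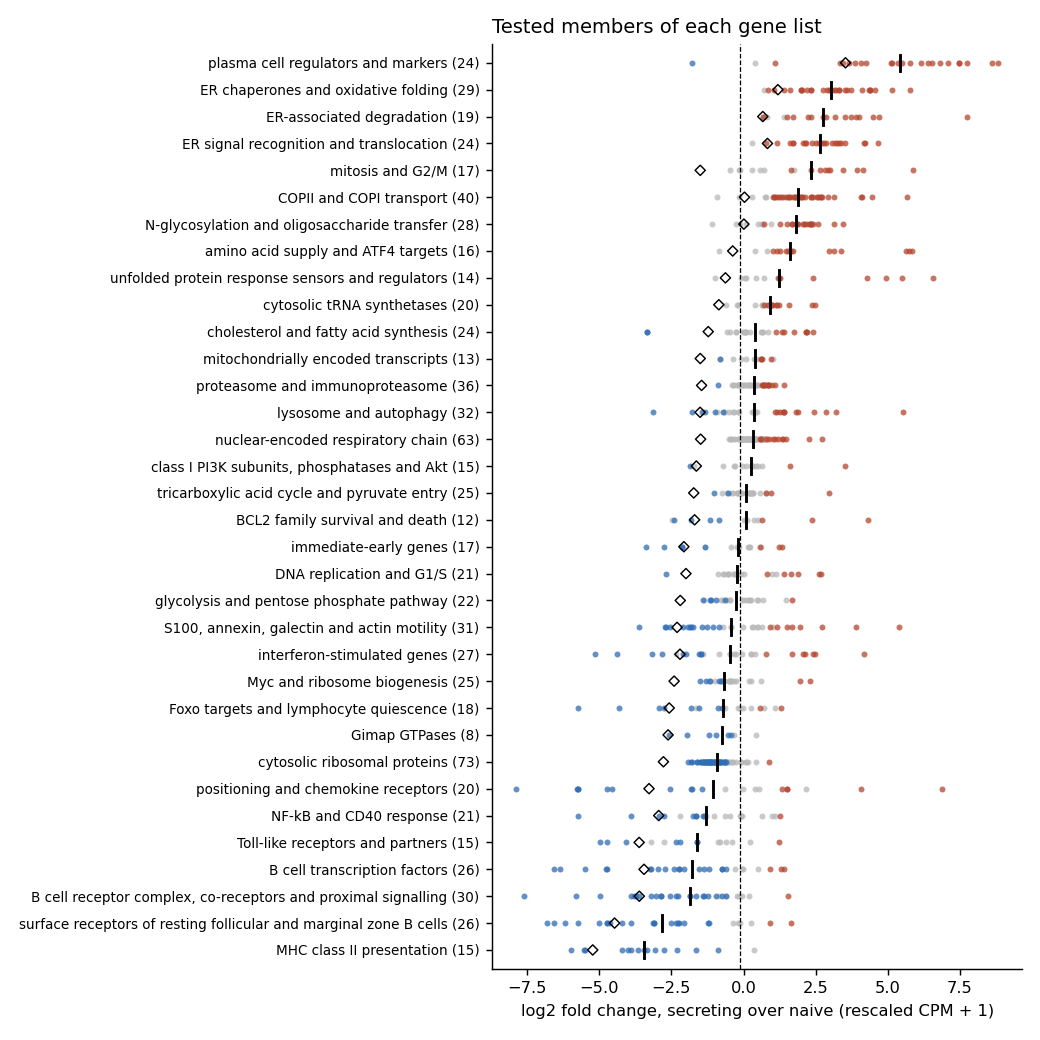
Log2 fold change of secreting over naive cells (horizontal axis, rescaled CPM + 1) for the tested members of each gene list (rows, number tested in brackets), red where called higher, blue where called lower and grey where not called. Black bars are list medians, open diamonds the medians in CPM as deposited, and the dashed line the median of all tested genes at −0.12; the plasma cell list lies farthest right, at a median of 5.42, and MHC class II farthest left, at −3.46.

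Several of the ER genes share a promoter sequence. The ER stress response element (ERSE), CCAAT and CCACG parted by any 9 bases, is bound by ATF6 and Xbp1 together with NF-Y. It was searched on both strands from 250 bases before to 50 bases after each transcription start in RefSeq promoters (build GRCm38.p6, the same sequence as mm10). It was found in 39 of 32851 promoters (0.119%), belonging to 37 genes, of which 21 are listed in the tables and 13 were tested. Of those 13, 10 were called higher in secreting cells, none lower, and Hnrnpa3, Pan2 and Syvn1 were not called. Canx, Hspa5, Derl3 and the other 7 are all members of the ER lists. The matches are shown with 10 bases on either side, each turned to read in the direction of the element, with the element in capitals and its first base 65 to 220 bases before the start site.
Hspa5 (chr2:34772015-34772053, plus strand): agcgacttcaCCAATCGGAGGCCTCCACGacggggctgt
Hsp90b1, nearer the start (chr10:86705523-86705561, plus strand): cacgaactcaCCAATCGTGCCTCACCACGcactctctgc
Hsp90b1, farther from the start (chr10:86705628-86705666, minus strand): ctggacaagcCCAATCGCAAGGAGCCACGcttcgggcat
Derl3 (chr10:75893232-75893270, minus strand): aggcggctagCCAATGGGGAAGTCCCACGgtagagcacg
Creld2 and Alg12, 1 shared match between the 2 genes (chr15:88819510-88819548, minus strand): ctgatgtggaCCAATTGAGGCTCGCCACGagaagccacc
Pdia6 (chr12:17266481-17266519, plus strand): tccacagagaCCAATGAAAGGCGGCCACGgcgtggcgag
Dnajc3 (chr14:118937817-118937855, plus strand): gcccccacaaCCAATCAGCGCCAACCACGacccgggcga
Calr (chr8:84847065-84847103, plus strand): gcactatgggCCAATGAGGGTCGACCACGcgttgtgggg
Canx (chr11:50325790-50325828, minus strand): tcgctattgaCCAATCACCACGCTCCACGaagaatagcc
Ero1lb (chr13:12565672-12565710, minus strand): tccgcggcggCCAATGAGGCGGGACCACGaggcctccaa

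These genes differed widely in how far they rose. Derl3 (log2 fold change 7.73), Creld2 (5.78 ± 0.19) and Hsp90b1 (4.56) rose most, and Canx (0.86) and Ero1lb (1.05 ± 0.20), an ER oxidase, least. Hsp90b1 carries 2 matches and the others 1. Creld2 and Alg12 start on opposite strands beside the same match, and Creld2 stood at 1031 ± 169 CPM against 17.7 ± 2.32 while Alg12, a mannosyltransferase, stood at 25.3 ± 9.81 against 7.91 ± 1.83 (means ± SD, n = 3). The Alg12 call (log2 fold change 1.5) was lost without secreting-cell replicate 1 (adjusted p = 0.0735) or 3 (0.0871) or naive replicate 1 (0.0699) or 2 (0.0767). Syvn1, the ubiquitin ligase of ER-associated degradation, had a log2 fold change of 1.39 ± 0.54 (limma adjusted p = 0.0779), and was called without secreting-cell replicate 2, at 2.09 (adjusted p = 0.000896). The promoter table matched 70 of the 86 genes called higher in the translocation, folding, glycosylation and degradation lists. Of their 80 promoters, 12.5% held the element, and of 11 promoters of members of those lists that were not called, 1 (9.09%) did. A second element, TGACGTGG, an Xbp1-type site searched on both strands, was in 5% of those promoters and in 0.676% of all promoters of the table. It was found before Txndc5, Txndc11, Ube2j1 and Vcp. A match is a description of letters in a window, and binding was not measured here.
Txndc11 (chr16:11134617-11134644, minus strand): gaagtgtggcTGACGTGGagagtccggg
Txndc5 (chr13:38528035-38528062, minus strand): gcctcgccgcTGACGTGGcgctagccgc

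Amino acid supply rose and the ribosome's own proteins fell. Of 23 listed genes of amino acid uptake, synthesis and ATF4 response, 16 passed the filter on low values. Some, Pycr1 among them, passed only through their level in secreting cells, so the count and median describe the tested members and not the list. Of the 16, 13 were called higher and none lower (median 1.59). In CPM as deposited the median was −0.38, with 3 higher and 3 lower. Without secreting-cell replicate 1, 8 were called higher and 1 lower. Slc3a2, the shared heavy chain of amino acid transporters, stood at 1434, 1961 and 1204 CPM against 154, 189 and 170 (3.13 ± 0.20, limma adjusted p = 1.76e-05). Pycr1, a proline synthesis enzyme, stood at 137, 261 and 132 CPM against 0, 3.84 and 5.60 (5.73 ± 0.69), with a log2 fold change of 4.90 without naive replicate 1 and a lost call with voom (adjusted p = 0.0531). Of 20 cytosolic tRNA synthetases, 10 were called higher and none lower (median 0.91, but −0.86 in CPM as deposited, with 2 higher and 12 lower). The 10 became 6 without naive replicate 1 and 5 with no filter. Cytosolic ribosomal protein genes were called lower in 48 of 73 tested and higher in 1 (median −0.92). Rpl32 stood at 306, 271 and 362 CPM against 842, 734 and 655, Rps9 at 289, 260 and 354.2 against 897, 731 and 752, and Rpl4 at 589, 522 and 616 against 898, 939 and 927. The exception was Rpl10, at 103, 112 and 126 CPM against 63.7, 62.3 and 58.3 (0.88 ± 0.18, limma adjusted p = 0.00598). Reads of ribosomal protein genes can be shared with their processed pseudogenes, and how the authors' counting divided them is not given in the sources used here.

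Genes of ribosome assembly were mostly not called, with 5 of 25 tested lower (3 without naive replicate 1 or 2) and 2 higher (median −0.67). The 20% called lower was near the 19.1% of all tested genes. Npm1, a nucleolar chaperone, stood at 67.8, 60.7 and 75.2 CPM against 166, 147 and 142, and Srm, the spermidine synthase, went the other way at 194, 185 and 192 against 36.6, 42.1 and 36.2 (2.29 ± 0.17, limma adjusted p = 4.36e-05). Myc, which drives both sets in activated cells, overlapped between the groups: 141, 90.5 and 182 CPM against 190, 129 and 266 (−0.49 ± 0.33, limma adjusted p = 0.272).

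Glycolysis, tricarboxylic acid cycle and respiratory chain genes were called less often than tested genes in general (36.0%). Over all tested genes 16.8% were called higher and 19.1% lower. Of 22 tested glycolysis and pentose phosphate genes, 5 were called lower (3 without naive replicate 1) and 1 higher (median −0.27). Eno1 (enolase) stood at 108, 103 and 148 CPM against 293.8, 303 and 337 and Ldha (lactate dehydrogenase) at 119, 112 and 139 against 249, 241 and 228, while Rpia, of the pentose phosphate branch, was the one called higher. That call was lost without secreting-cell replicate 1 (adjusted p = 0.0589). Of 25 tricarboxylic acid cycle genes, 3 were called higher and 2 lower, but 1 higher and none lower without secreting-cell replicate 3 or naive replicate 1 or 3, and 1 higher and 1 lower without naive replicate 2. Idh2, the mitochondrial NADP-dependent isocitrate dehydrogenase, had the largest difference at 76.7, 62.3 and 95.5 CPM against 9.12, 11.9 and 6.79 (2.96 ± 0.32, limma adjusted p = 0.000248). Nuclear genes of the respiratory chain were called higher in 12 of 63 tested (19.0%, near the 16.8% of all tested genes) and lower in none. Their median was 0.32, but −1.49 in CPM as deposited, with 1 higher and 57 lower. Ndufa4, a cytochrome oxidase-associated subunit, led them at 404, 299 and 440 CPM against 71.0, 54.2 and 47.2 (2.71 ± 0.22). Of 24 tested sterol and fatty acid genes, 8 were called higher and 2 lower (median 0.41, but −1.22 in CPM as deposited, with none higher and 13 lower), and 5 were called higher without secreting-cell replicate 3. Insig1, the sterol sensor's retention factor, rose to 115, 95.4 and 114 CPM from 21.1, 10.1 and 33.9, and Scd1, a fatty acid desaturase, fell to 94.6, 49.5 and 165 from 944, 865 and 1046.

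Genes of protein disposal were called higher more often than lower, but not in CPM as deposited. Over all tested genes 16.8% were called higher and 19.1% lower. Of 36 tested proteasome genes, 12 were called higher and 1 lower (median 0.36, but −1.45 in CPM as deposited, with none higher and 35 lower). The 12 fell to 6 without secreting-cell replicate 3 or naive replicate 2 or 3, and to 7 without naive replicate 1, and 3 were called lower without secreting-cell replicate 2. The one called lower was Psme1, a subunit of the interferon-inducible activator, at 28.4, 27.9 and 38.4 CPM against 57.5, 62.0 and 55.4, and it was lost without naive replicate 1 (adjusted p = 0.061), 2 (0.0756) or 3 (0.0568). Of 32 tested lysosome and autophagy genes, 12 were called higher (37.5%) and 6 lower (18.75%), with a median of 0.35. The share called lower was near that of all tested genes. In CPM as deposited 3 were higher and 24 lower (median −1.51). The 6 became 3 without naive replicate 2 or with voom. Gusb, a lysosomal glucuronidase, stood at 208, 297 and 318.7 CPM against 53.7, 39.1 and 55.6 (2.44 ± 0.23), and Ctsh, a lysosomal protease, at 104, 119 and 120 against 310, 299 and 263 (−1.33 ± 0.15).

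Of 33 listed mitosis genes, 17 passed the filter on low values, several only through their level in secreting cells, so their count and median describe those members and not the list. Of the 17, 10 were called higher and none lower (median 2.35, but −1.50 in CPM as deposited, which left 5 members above the filter, 1 called higher and 4 lower). Without secreting-cell replicate 2, which had the most Mki67, 11 passed the filter, 3 were called higher and the median was 0.68. Without secreting-cell replicate 3, 6 were called higher, and with voom 4. Mki67, a marker of cycling cells, stood at 150, 238 and 134 CPM against 21.3, 0.0894 and 0 (5.87 ± 1.09, limma adjusted p = 0.00377). Its log2 fold change was 7.34 without naive replicate 1, 5.17 without naive replicate 2 and 5.11 without naive replicate 3, and voom did not call it (adjusted p = 0.0767). Racgap1, needed for cytokinesis, stood at 41.4, 33.4 and 31.8 CPM against 3.44, 15.55 and 3.94 (2.35 ± 0.54, and 2.95 without naive replicate 2). Of 35 listed replication genes, 21 passed the filter, so their count and median also describe those members and not the list. Of the 21, 6 were called higher and 1 lower (median −0.21), with 3 higher without secreting-cell replicate 3. In CPM as deposited none were higher and 14 lower. Ccne2, called higher, passed only through its level in secreting cells, and Pold1, called lower, only through its level in naive cells. Rrm2, the ribonucleotide reductase subunit of S phase, stood at 104, 226 and 131 CPM against 29.7, 15.46 and 26.8 (2.60 ± 0.36, limma adjusted p = 0.000853), and Ccne2, a G1/S cyclin, at 51.9, 41.3 and 52.3 against 11.1, 5.60 and 4.50.

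Survival genes of the BCL2 family went both ways. Of 12 tested of 19 listed, 3 were called higher (25%) and 4 lower (33.3%), against 16.8% and 19.1% of all tested genes. The median was 0.07, but −0.06 without secreting-cell replicate 1 and −0.11 without secreting-cell replicate 3. In CPM as deposited it was −1.70, with 1 higher and 10 lower. Mcl1, which plasma cells need, stood at 338, 341 and 324 CPM against 206, 241 and 203 (0.63 ± 0.14, limma adjusted p = 0.00895). Bcl2l11 (BIM), which promotes death, stood at 95.4, 151 and 73.0 CPM against 35.2, 23.9 and 7.89 (2.36 ± 0.52). Bcl2l1, also called higher, stood at 102, 27.5 and 100 CPM against 7.92, 3.40 and 0 (4.30 ± 0.85, limma adjusted p = 0.00525). It had the largest log2 fold change of the list and passed the filter only through its level in secreting cells. Bcl2, which protects resting B cells, stood at 107, 41.4 and 76.8 CPM against 140, 151 and 186 (−1.16 ± 0.33, limma adjusted p = 0.026), a call lost without secreting-cell replicate 3 (0.0533) or naive replicate 1 (0.0506), 2 (0.0605) or 3 (0.0879). The near-identical copies Bcl2a1b and Bcl2a1d, targets of NF-kB whose reads can be split between copies, were both called lower. NF-kB and CD40 response genes were called lower in 9 of 21 tested and higher in 1 (median −1.31). The 9 became 5 without naive replicate 2 or 3 or with no filter, and 17 of 18 tested in CPM as deposited. Cd83, a marker of activated antigen-presenting cells, stood at 89.3, 142 and 61.5 CPM against 1429, 1340 and 1422, while Nfkbia, the inhibitor IκBα, stood at 536, 381 and 503 against 200, 188 and 198 (1.26 ± 0.16, limma adjusted p = 0.000697).

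Quiescence and sensing genes leaned lower. Of 18 tested Foxo target and quiescence genes, 8 were called lower and 2 higher (median −0.70), and none higher and 16 lower in CPM as deposited. Btg1, an antiproliferative factor, stood at 39.6, 111 and 46.5 CPM against 1064, 1190 and 1338 (−4.31 ± 0.35, limma adjusted p = 6.14e-05), and Slfn2, which maintains quiescence, at 120, 75.4 and 79.0 against 557, 695 and 577. The Gimap GTPases of lymphocyte survival were called lower in 6 of 8, with Gimap3 at 216, 115 and 235.1 CPM against 747, 812 and 569. The 6 became 4 with median-of-ratios scaling or a replicate block, and without secreting-cell replicate 3 or naive replicate 1, 2 or 3. Toll-like receptors and partners were called lower in 7 of 15 tested and higher in 1 (median −1.62). Cd180 and its partner Ly86, which dampen and tune these receptors, stood at 53.7, 40.3 and 48.5 CPM against 272, 257 and 200 and at 10.2, 29.2 and 26.0 against 518, 535 and 598. Of 27 tested interferon-stimulated genes, 7 were called higher and 9 lower (median −0.48), but 1 higher and 16 lower in CPM as deposited, 6 higher and 3 lower with a filter at 50 (median 0.16) and 5 lower with voom. Isg20, an exonuclease, stood at 254, 550 and 291 CPM against 21.4, 13.0 and 21.8 (4.16 ± 0.33), and Ifi203 at 71.1, 60.7 and 51.4 against 257, 233 and 305 (−2.10 ± 0.19).

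Class I phosphoinositide 3-kinase genes, the subject of the series, were mostly not called. Pik3cg, which encodes p110γ, stood at 114, 185 and 181 CPM in secreting cells and 120, 115 and 115 in naive cells, a log2 fold change of 0.42 with a 95% interval from −0.07 to 0.92 (limma adjusted p = 0.165). Secreting-cell replicate 1 lay below the naive values and the other 2 above them, and without it the difference was 0.64 and was called (adjusted p = 0.0201). Of 15 tested of 23 listed genes, 2 were called higher (13.3%) and 1 lower (6.67%), against 16.8% and 19.1% of all tested genes. In CPM as deposited none were higher and 11 lower. The 2 called higher, Pik3r5 and Mtor, passed the filter on low values only through their level in secreting cells. Their calls describe those members and not the list. Pik3r5, the p101 adaptor that couples p110γ to G protein receptors, stood at 123, 40.7 and 94.2 CPM against 16.2, 7.77 and 1.19 (3.51 ± 0.75, limma adjusted p = 0.00751), with 4.17 without naive replicate 1 and 2.68 without naive replicate 3. Inpp5d (SHIP1), the phosphatase that ends the signal, stood at 67.3, 13.1 and 39.9 CPM against 128, 106 and 131 (−1.85 ± 0.51), and its call was lost without naive replicate 1 (0.063) or 3 (0.0678), with a value of −1.21 without secreting-cell replicate 2. The remaining called gene, Mtor, was higher at 20.5, 27.2 and 14.8 CPM against 9.52, 4.56 and 4.59, a call lost without secreting-cell replicate 1 (0.0631) or 2 (0.0742) or naive replicate 2 (0.0773) or 3 (0.0781).

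Of 31 tested genes of S100 proteins, annexins, galectins and actin motility, 13 were called lower and 8 higher (median −0.43, but 0.03 with voom and 0.06 without secreting-cell replicate 2). In CPM as deposited 2 were higher and 22 lower. Actb stood at 1668, 2305 and 1811 CPM against 6020, 6123 and 7320 (−1.76 ± 0.16), and Tmsb4x, the actin-sequestering thymosin, and Pfn1 (profilin) fell by 1.85 (SE 0.20) and 1.83 (SE 0.14). Anxa2, a membrane-binding annexin, stood at 378.3, 171 and 373 CPM against 4.32, 6.97 and 6.70 (5.40 ± 0.36, limma adjusted p = 2.45e-05), and Lgals1, a galectin, at 135, 158 and 207 against 13.0, 10.7 and 7.52. Among immediate-early genes, which respond within minutes to stimulation and to cell handling, 3 of 17 tested were called higher and 5 lower (median −0.18), but none higher and 16 lower in CPM as deposited. The shares were 17.6% higher and 29.4% lower, against 16.8% and 19.1% of all tested genes. Nr4a1, a reporter of antigen receptor signalling, stood at 4.35, 2.95 and 13.7 CPM against 68.8, 59.9 and 79.6, while Fos stood at 3493, 3422 and 5004 against 1379, 1374 and 1953.

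Markers of other cells were present in both groups, and their part in these results was not tested. Over 25 T cell genes the summed level was 195 to 346 CPM in secreting cells and 123 to 182 in naive cells. Zap70 and Cd3e were at or near 0 in secreting cells. Of the 25, 3 passed the filter, with Ctla4 and Cd4 called higher and Lck called lower. Lck stood at 15.9, 13.1 and 19.2 CPM against 25.1, 60.3 and 60.6 (−1.45 ± 0.40, limma adjusted p = 0.0224). Ctla4 and Cd4 passed only through their level in secreting cells. Over 22 listed macrophage genes the sum was 1017 to 1477 against 806 to 914, most of it Apoe (685, 1160 and 1004 against 764, 766 and 702), and of 7 tested Itgam and Cd68 were called higher, while Csf1r was at most 8.66 CPM. Itgam, which encodes CD11b, stood at 256, 99.4 and 176 CPM against 0, 1.25 and 2.84. Itgam and Cd68 passed the filter only through their level in secreting cells, so their calls describe those members and not the list. Neutrophil sums were 0.221 to 128 against 1.52 to 174, and erythroid sums 4.60 to 314 against 282.8 to 1392, with no neutrophil gene called and 1 of 5 erythroid genes called lower in secreting cells, or all 5 with a replicate block. NK cell sums were 186 to 280 against 26.6 to 56.2, with the defining receptor Ncr1 at 0, 0 and 4.19. Of 13 NK cell genes found, 3 passed the filter, Prf1, Gzma and Il2rb, and all were called higher. Gzma and Il2rb passed only through their level in secreting cells, so these calls describe those members and not the list. Without naive replicate 2 the log2 fold change of Prf1 was 3.02 in place of 3.64 and that of Il2rb 3.91 in place of 3.17, and without naive replicate 1 that of Cd4 was 5.66 in place of 4.72. Apoe was not called, but was without secreting-cell replicate 1 (0.54, adjusted p = 0.0236). Dendritic sums were 508 to 652 against 175 to 197, most of it Tcf4 and Bst2, which are shared with B lineage cells, and stromal sums were 60.0 to 77.0 against 160 to 222, nearly all Pecam1.

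The bone marrow secreting cells of the same series, 3 libraries gated the same way and labelled wild type, differed far less from the spleen cells. In a fit with all 3 groups, 28 of 9175 tested genes (0.305%) passed an adjusted p of 0.05 in limma, 21 higher in spleen (0.229%) and 7 higher in bone marrow (0.0763%). That count fell to 6 without spleen secreting-cell replicate 1 and to 0 without replicate 3, where 873 genes still had an unadjusted p under 0.05, and it ran from 29 to 47 without any one bone marrow library. It was 39 with a pseudocount of 5, 44 with the filter lowered to a mean of 1, and 290 in CPM as deposited, so the genes below are tied to the libraries used. Among the 21 genes higher in spleen were H2-Aa (317, 544 and 353 CPM against 151, 111 and 91.8 in marrow, limma adjusted p = 0.0201), H2-Ob (86.4, 172 and 104 against 18.9, 36.1 and 10.9, limma adjusted p = 0.0418) and S1pr1 (148, 68.5 and 130 against 19.8, 25.2 and 11.1, limma adjusted p = 0.021). These genes stood lower in both secreting groups than in naive cells, where H2-Ob was at 1498, 1561 and 1319 CPM. Anxa2, at 50.9, 26.2 and 34.1 CPM in marrow, and Bcl2l11, at 0.421, 2.97 and 10.3, were higher in spleen by 2.98 (SE 0.39) and 4.69 (SE 0.76) on the log2 scale. Markers of other cells moved with this contrast. Mpo and Elane, granule proteins of neutrophil precursors, were called higher in marrow and were at 0 in all 3 spleen libraries. Igll1, a surrogate light chain gene of B cell precursors, was also at 0 in spleen and at 52.6, 80.1 and 419 CPM in marrow (limma adjusted p = 0.0201). Apoe, the gene with most CPM in the macrophage list, stood at 685, 1160 and 1004 CPM in spleen and 17.7, 85.0 and 42.9 in marrow, higher in spleen by 4.49 (SE 0.45, limma adjusted p = 0.00704). The part of such cells in the other differences was not tested. Prdm1, Xbp1, Irf4 and Tnfrsf17 were not called between the 2 secreting groups, with log2 differences of −0.14, −0.25, 0.33 and 0.43 (limma adjusted p = 0.957, 0.519, 0.679 and 0.516).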

How the data were processed

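The authors aligned reads with STAR to mm10, per the submitters' processing notes. For the counting tool, annotation, strand and versions, the sources used here give nothing, and how reads were divided between overlapping or antisense genes is uncertain. The deposited values are the authors' CPM, each column summing to 1000000 over 19416 genes in each of the tables used. Steps between low values gave an estimated depth, but only 85.6% to 88.1% of values were whole reads to within 0.02. The main test was therefore not a count test, and voom on reads rounded from that depth was run as an alternative. The deposited CPM behave like scaled estimated counts. From them 19 rows with spreadsheet dates as names, 271 immunoglobulin rows and Jchain were removed, and the rest were rescaled. Genes with a mean of at least 10 were tested on log2(CPM + 1) with limma 3.58.1 in R 4.3.3 (lmFit, eBayes with trend, no covariate, Benjamini-Hochberg over all tested genes, called under 0.05). The scale understates changes of low genes.

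The cell types were joined from 2 tables because both list the same genes and scale each library alike. A gene at 0 in a group is given as a bound against a floor of 3 reads per library. Floors and depths cover counting error only. Bone marrow and spleen secreting cells were compared in a fit of all 3 groups. Libraries with the same number did not deviate together (correlations 0.04, 0.05 and −0.01), so the numbers were not treated as pairs. Named genes follow a rule: 18 fixed genes, the 15 largest calls each way with no overlap and a mean of at least 50, and up to 4 called members of each of 41 lists by mean level. Not all of them are described, and some are not reported here. Genes shown for a promoter match, genes called between spleen and bone marrow, and Ccr10, Ddit3 and Rfxank stand outside it and were chosen after their values were seen. The members and lists were chosen with earlier results of these data known. Positions are from GENCODE release M21 (mm10), where 96.4% of symbols were found. The test was tried on simulated data of 9031 genes, of which 100 were changed 2-fold and 99 changed 4-fold. The changed genes all had a naive mean of at least 20. Of these, 20% and 72.7% were recovered, with 5 false among 97 calls. A far smaller share of genes was changed there than was called in the real data, so these rates describe that setting and not the sensitivity here. Python 3.11.15, pandas 2.3.3 and matplotlib 3.10.9 were used. Alternatives covered the pseudocount, filter, scaling, weights, robust estimation, voom, threshold, a replicate block, naive libraries labelled knockout as controls, and leaving out each library.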

Additional observations from a re-analysis of the deposited data

How the results depend on the processing

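The count of 3260 calls (1526 higher and 1734 lower in secreting cells) stayed within 1.5 times under array weights, robust estimation, voom, median-of-ratios scaling, pseudocounts of 0.5 and 5, a filter at a mean of 1 or none, and naive libraries labelled knockout as controls. It moved to 2050 (915 higher, 1135 lower) with a filter at 50, which tests fewer genes, to 1990 (975 and 1015) at an adjusted p under 0.01, and to 6853 (429 and 6424) in CPM as deposited, where 1948 of the main calls kept their direction and 387 turned. The share of calls that were higher was 46.8%, and 52.1% with median-of-ratios scaling. Leaving out 1 library gave 2503 to 3013 calls, 1212 to 1333 higher and 1211 to 1694 lower. The replicate numbers did not pair the libraries: those of secreting-cell replicates 1 and 2 correlated best with their own number and replicate 3 did not, and a replicate block gave 3012 calls (1417 higher, 1595 lower). Among 142 of the genes named here, voom lost the call of 14 and no alternative but CPM as deposited turned the direction of a called gene. There the log2 fold change was −1.56 for Apoe, −0.62 for Atf4, −1.03 for Canx, −1.74 for Ddit3, −0.83 for Ero1lb, −0.55 for Fos, −0.38 for Itga4, −0.54 for Itgb2, −0.37 for Itgb7, −1.25 for Mcl1, −0.62 for Nfkbia, −1.44 for Pik3cg, −0.59 for Pou2af1, −0.31 for Ptpn22, −1.40 for Rfxank, −0.98 for Rpl10, −0.47 for Syvn1, −0.47 for Tcf4, −0.99 for Tnfrsf13b and −0.36 for Vcp. The main values of these genes were below the shift of 1.84 that keeping the immunoglobulin rows in the total makes. Genes not called that crossed 0 were Ddit3 (−0.21 to 0.28 when 1 library was left out) and Pan2 (−0.11 with knockout controls, and −0.011 to 0.93 when 1 library was left out), and the cause was not tested. The 28 calls between spleen and bone marrow secreting cells became 290 in CPM as deposited, 44 with a filter at 1, 39 with a pseudocount of 5, and 0 to 47 when 1 library was left out; these alternatives were chosen after seeing the data, and the cause was not tested. Depth limits genes near 0: 3 reads stand for up to 0.984 CPM in secreting cells and 0.275 in naive cells.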
